A study of Mus musculus with 8 samples.

Results

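B cell receptor signalling runs through a short chain of kinases, adaptors and lipid enzymes, and the 10 genes described here encode links of that chain: *Lyn*, *Blk*, *Syk*, *Blnk*, *Pik3ap1*, *Dok3*, *Pik3cd*, *Inpp5d*, *Plcg2* and *Prkcb*. Their chromatin was profiled by ATAC-seq, in which the Tn5 transposase cuts open DNA, in 2 kinds of mouse multipotent progenitor with and without *Ebf1*. A peak of accessibility was counted as a member when one of these genes was its closest gene by GENCODE vM21 on mm10, with the peak center in the gene or within 20 kb before it or 10 kb after it. The genes were chosen by name, with earlier results of these data known, and the peaks by position. This gave 124 of 87642 peaks in MPP3 cells and 117 of 86952 peaks in MPP4 cells, with 5 to 20 peaks per gene in MPP3 cells and 3 to 21 in MPP4 cells.

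The series compared *Ebf1*-KO with WT progenitors of C57BL/6 mice within each cell type, to ask how the loss of EBF1 changes open chromatin before B cells arise. MPP3 cells are myeloid-biased and MPP4 cells lymphoid-biased progenitors. MPP3 cells were sorted as LSK CD150- CD48+ and MPP4 cells as LSK CD150- CD48+ Flt3+ bone marrow cells, after depletion of cells with mature lineage markers. There were 4 groups with 2 libraries of 5000 cells each, 8 in all. Per the labels, mice of both genotypes carried floxed *Ebf1*, and KO mice also had 1 copy of Tie2Cre, a Cre driven by the promoter of *Tek*, which is active in blood and endothelial cells, where WT mice had none. The sources differ on the controls, since the design text and the methods also give WT mice as carriers of Tie2Cre with unfloxed *Ebf1*, or as littermates of either kind. Mice were 8 weeks old in both MPP3 WT libraries, 8 and 9 weeks in the MPP3 KO libraries, 9 weeks in both MPP4 WT libraries and 8 weeks in both MPP4 KO libraries, so age and genotype cannot be told apart in MPP4 cells. Of the 8 libraries, 1 MPP4 WT library came from a male. If the controls lacked Cre, its own effect and that of the deletion cannot be told apart either. Since nothing in the labels says more about how the replicates relate, p-values measure the spread between these libraries. With 2 libraries per group, the authors' test estimates most of that spread over all peaks together.

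The authors' deposited tables give, for each peak, the log2 fold change of KO over WT, the mean log2 CPM over the 4 libraries of a cell type (read counts scaled to library size, on a log2 scale), and the F statistic, p-value and false discovery rate (FDR) of edgeR's quasi-likelihood test. They hold no column per library, so each peak has 1 fitted difference with its error and no value per mouse. The error given here is an approximate SE, the size of the log2 fold change over the root of F. A peak was called at an FDR under 0.05. All fold changes and FDRs of single cell types below are the authors' deposited values. How deep each library was sequenced is not known from the tables, and the precision shows only in the SE, which had a median over the member peaks of 0.40 (MPP3) and 0.34 (MPP4) on the log2 scale.

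In a mature B cell, antigen binding to the receptor lets Src family kinases such as LYN and BLK phosphorylate its CD79A and CD79B tails, where SYK docks. SYK phosphorylates the adaptor BLNK, which gathers PLCγ2, and the lipid second messengers of PLCγ2 activate protein kinase C β and release calcium. The adaptor BCAP, encoded by *Pik3ap1*, brings in phosphoinositide 3-kinase, whose p110δ catalytic subunit is encoded by *Pik3cd*, while the lipid phosphatase SHIP1, encoded by *Inpp5d*, and the adaptor DOK3 restrain the signal. EBF1 is a transcription factor needed for the B cell lineage and binds a palindromic DNA word. Several members, *Lyn*, *Syk*, *Inpp5d*, *Plcg2* and *Pik3cd* among them, also serve receptors of myeloid cells.

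In MPP3 cells, 4 of the 124 member peaks were called, all lower in KO cells, at the *Inpp5d*, *Pik3ap1*, *Blnk* and *Pik3cd* genes. Of all MPP3 peaks, 0.524% were called in either direction and 0.468% were called lower. In MPP4 cells, 0 of the 117 member peaks passed the edgeR test, where 0.328% of all peaks did. At an unadjusted p under 0.05 there were 19 of the 117 (12 lower, 7 higher), beside 9.60% of all MPP4 peaks in either direction and 3.95% lower. With the adjustment made over peaks with a mean log2 CPM of at least 3 alone, 2 of 55 MPP4 member peaks passed, both lower in KO cells, where 1.18% of all such MPP4 peaks passed in either direction. The called MPP3 peaks lay at an adaptor that recruits the lipid kinase, at the lipid kinase itself, at the phosphatase that opposes it, and at the adaptor downstream of SYK.

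The sequences of these 4 called peaks are shown because they are the members whose change passed the test. Each is read 5′ to 3′ on the strand of its gene from mm10, whole for the 2 short peaks, and for the other 2 as the 300 bases outside annotated exons that hold the most of the words searched. Capitals mark the EBF1 word TCCCNNGGG, or its reverse complement CCCNNGGGA, and the E-box word CAGGTG on either strand, together with a further E-box, the palindromic CAGCTG. An EBF1 site with both flanking bases, the first T and the last A, matches both ways at once and is counted as 1 site.
Inpp5d, chr1:87621872-87622085: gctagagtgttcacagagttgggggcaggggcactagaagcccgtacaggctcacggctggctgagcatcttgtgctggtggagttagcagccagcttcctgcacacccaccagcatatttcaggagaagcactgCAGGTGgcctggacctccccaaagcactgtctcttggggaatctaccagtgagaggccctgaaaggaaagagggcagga
Blnk, chr19:40996254-40996403: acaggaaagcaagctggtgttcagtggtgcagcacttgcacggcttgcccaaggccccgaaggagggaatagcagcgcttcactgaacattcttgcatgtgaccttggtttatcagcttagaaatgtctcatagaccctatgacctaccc
Pik3ap1, chr19:41385157-41385456: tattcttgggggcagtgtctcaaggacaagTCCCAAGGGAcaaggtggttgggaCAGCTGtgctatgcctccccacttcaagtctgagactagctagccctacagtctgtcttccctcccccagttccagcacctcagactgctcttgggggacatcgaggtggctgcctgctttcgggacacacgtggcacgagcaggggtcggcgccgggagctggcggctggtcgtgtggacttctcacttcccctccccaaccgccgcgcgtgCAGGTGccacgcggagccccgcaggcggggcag
Pik3cd, chr4:149657911-149658210: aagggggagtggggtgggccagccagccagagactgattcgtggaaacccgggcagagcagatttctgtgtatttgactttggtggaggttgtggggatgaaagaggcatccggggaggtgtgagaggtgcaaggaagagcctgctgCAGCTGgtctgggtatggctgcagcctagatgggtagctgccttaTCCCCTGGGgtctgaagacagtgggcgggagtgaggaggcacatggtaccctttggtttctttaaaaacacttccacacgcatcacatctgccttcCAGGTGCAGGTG
The *Pik3ap1* promoter held 1 EBF1 site with both flanking bases, and an E-box 14 bp from it. The *Pik3cd* stretch shown held 1 EBF1 word and 3 E-boxes. The *Inpp5d* peak had 1 E-box and no EBF1 word, and the *Blnk* peak had neither. A word is a match of letters and does not show binding.

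Among the adaptors, the peak at the *Pik3ap1* promoter (chr19:41384985-41385629, center 205 bp upstream of the start) had a log2 fold change of -1.39 (SE 0.23, FDR = 0.00381), a 2.62-fold lower accessibility in KO MPP3 cells with a 95% interval of 1.88 to 3.65. With a mean log2 CPM of 4.79 it stood above 90.0% of all MPP3 peaks, so it was a strong promoter peak and among the better measured members. The other *Pik3ap1* peaks with an unadjusted p under 0.05 in MPP3 cells were 5919 bp upstream, at -1.33 (SE 0.46, FDR = 0.371), 12524 bp into the gene, at -1.27 (SE 0.50, FDR = 0.535), and 63762 bp into the gene, at 0.54 (SE 0.19, FDR = 0.399). The values below -1 of this gene were those at and nearest to its start. In MPP4 cells the promoter peak had a log2 fold change of 0.13 (SE 0.22, FDR = 0.916), and the *Pik3ap1* peaks with an unadjusted p under 0.05 were 56145 bp into the gene, at -0.51 (SE 0.15, FDR = 0.164), and 102095 bp into it, at 0.61 (SE 0.29, FDR = 0.489).

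*Blnk*, the adaptor that links SYK to PLCγ2, had its called peak 1793 bp upstream of the start (chr19:40996254-40996403). Its log2 fold change was -3.47 (SE 0.77, FDR = 0.0419), which is 11.1-fold with a 95% interval of 3.66 to 33.6. This was a weak peak of 150 bp with a mean log2 CPM of 1.96, and its interval is wide. Centred on peaks of like GC content and level, its log2 fold change was -3.38 with an FDR of 0.0513, and it was no longer called. The *Blnk* start peak itself, 74 bp upstream, had -1.12 (SE 0.32, FDR = 0.188) in MPP3 cells and 0.08 (SE 0.32) in MPP4 cells. The MPP4 *Blnk* peak of smallest p, 4291 bp upstream, had -0.36 (SE 0.20, FDR = 0.577). No MPP4 peak overlapped the called *Blnk* peak, so its change has no value in MPP4 cells.

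*Dok3*, the inhibitory adaptor, had 5 MPP3 peaks. The lowest lay in an exon (chr13:55527210-55527507, 1180 bp from the nearest start) at -1.31 (SE 0.33, FDR = 0.0933), while the main start peak had -0.06 (SE 0.20). In MPP4 cells the 3 *Dok3* peaks ranged from -0.51 to 0.14, with the smallest p at -0.39 (SE 0.25, FDR = 0.672).

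For the lipid enzymes, the called *Pik3cd* peak (chr4:149657903-149658410) lay in an intron, 44415 bp from the outermost start and 5128 bp from the nearest one. It had a log2 fold change of -1.41 (SE 0.31, FDR = 0.0443) in MPP3 cells, 2.66-fold with a 95% interval of 1.69 to 4.18. In MPP4 cells the same stretch had 0.61 (SE 0.18, FDR = 0.146). Of the 9 *Pik3cd* peaks in MPP3 cells 8 were below 0, with a median of -0.27, and of the 7 in MPP4 cells 2 were below 0, with a median of 0.27. The highest of the *Pik3cd* start peaks had -0.17 (SE 0.17) and 0.17 (SE 0.15) in MPP3 and MPP4 cells, with an FDR of 0.974 and 0.794.

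*Inpp5d* had the smallest FDR of all members. Its called peak (chr1:87621872-87622085) lay 304 bp from an internal transcript start and 1666 bp from the outermost one, with a log2 fold change of -2.58 (SE 0.41, FDR = 0.00309), 5.98-fold with a 95% interval of 3.29 to 10.8. Its neighbors over the starts did not share this, at 0.14 (SE 0.24) for the outermost start and -0.12 (SE 0.28) for a start 139 bp away. Farther into the gene, the intron peak chr1:87626374-87626786 had -0.69 (SE 0.20, FDR = 0.208), and another, 25408 bp before its nearest start, had -0.66 (SE 0.21, FDR = 0.289).

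*Inpp5d* was also the gene with the smallest FDR among members in MPP4 cells. The MPP4 counterpart of that intron peak (chr1:87626366-87626798) had a log2 fold change of -0.54 (SE 0.14, FDR = 0.0667), a 1.45-fold difference with a 95% interval of 1.20 to 1.76. In all, 5 of the 16 *Inpp5d* peaks of MPP4 cells had an unadjusted p under 0.05, and all 5 were below 0. Of all MPP4 peaks 9.60% passed that p in either direction, and 3.95% were lower at it. The 5 *Inpp5d* peaks included both start peaks, at -0.42 (SE 0.15, FDR = 0.287) and -0.56 (SE 0.20, FDR = 0.264). The called MPP3 peak had no MPP4 counterpart.

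The kinases that act first gave no called peak. *Lyn* had 10 MPP3 peaks between -0.71 and 0.25, none with an unadjusted p under 0.05, and its start peak had -0.26 (SE 0.25) in MPP3 and 0.08 (SE 0.24) in MPP4 cells. The smallest p in MPP3 cells was 862 bp after a start, at -0.63 (SE 0.35, FDR = 0.821). In MPP4 cells 1 *Lyn* intron peak had -0.83 (SE 0.30, FDR = 0.283). *Blk*, a Src family kinase of B-lineage cells, had its best MPP3 peak in an intron (chr14:63377208-63377791) at -0.93 (SE 0.23, FDR = 0.0827), 1.91-fold with a 95% interval of 1.37 to 2.66. The same stretch had -0.03 (SE 0.15) in MPP4 cells. A weak *Blk* peak 2586 bp upstream had -2.45 (SE 0.92, FDR = 0.475). The start of *Blk* held a peak in MPP3 cells, at a mean log2 CPM of 1.80 and a log2 fold change of -0.80 (SE 0.64), and none in MPP4 cells, where the smallest p of the gene was at 0.42 (SE 0.42, FDR = 0.828).

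*Syk*, the kinase that couples the receptor to its adaptors, had 19 peaks in each cell type, with 15 below 0 in each. Its lowest-p MPP3 peak, 16158 bp upstream, had -0.96 (SE 0.35, FDR = 0.426), and the MPP4 peak there had 0.43 (SE 0.28). In MPP4 cells the peak 10498 bp upstream (chr13:52572466-52572884) had -0.54 (SE 0.14, FDR = 0.0758), against -0.15 (SE 0.21) in MPP3 cells. The *Syk* start peak had -0.16 (SE 0.22) in MPP3 and -0.21 (SE 0.19) in MPP4 cells.

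Of the enzymes at the end of the chain, *Prkcb*, the gene of protein kinase C β, had a pair of low peaks at its start in MPP3 cells, at -1.26 (SE 0.38, FDR = 0.227) and -1.32 (SE 0.35, FDR = 0.121). In MPP4 cells the first had 0.89 (SE 0.27, FDR = 0.157) and the second -0.12 (SE 0.33). A weak intron peak of *Prkcb* (chr7:122352621-122352985) had -2.84 (SE 0.72, FDR = 0.0987) in MPP3 cells and no counterpart. *Plcg2*, the gene of PLCγ2, had -0.99 (SE 0.41, FDR = 0.584) at 1011 bp into the gene in MPP3 cells and 0.97 (SE 0.35, FDR = 0.272) 3238 bp upstream in MPP4 cells. The *Plcg2* start peak had -0.29 (SE 0.21) in MPP3 and 0.19 (SE 0.18) in MPP4 cells. None of the *Plcg2* peaks passed the test.

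**Figure D1:**
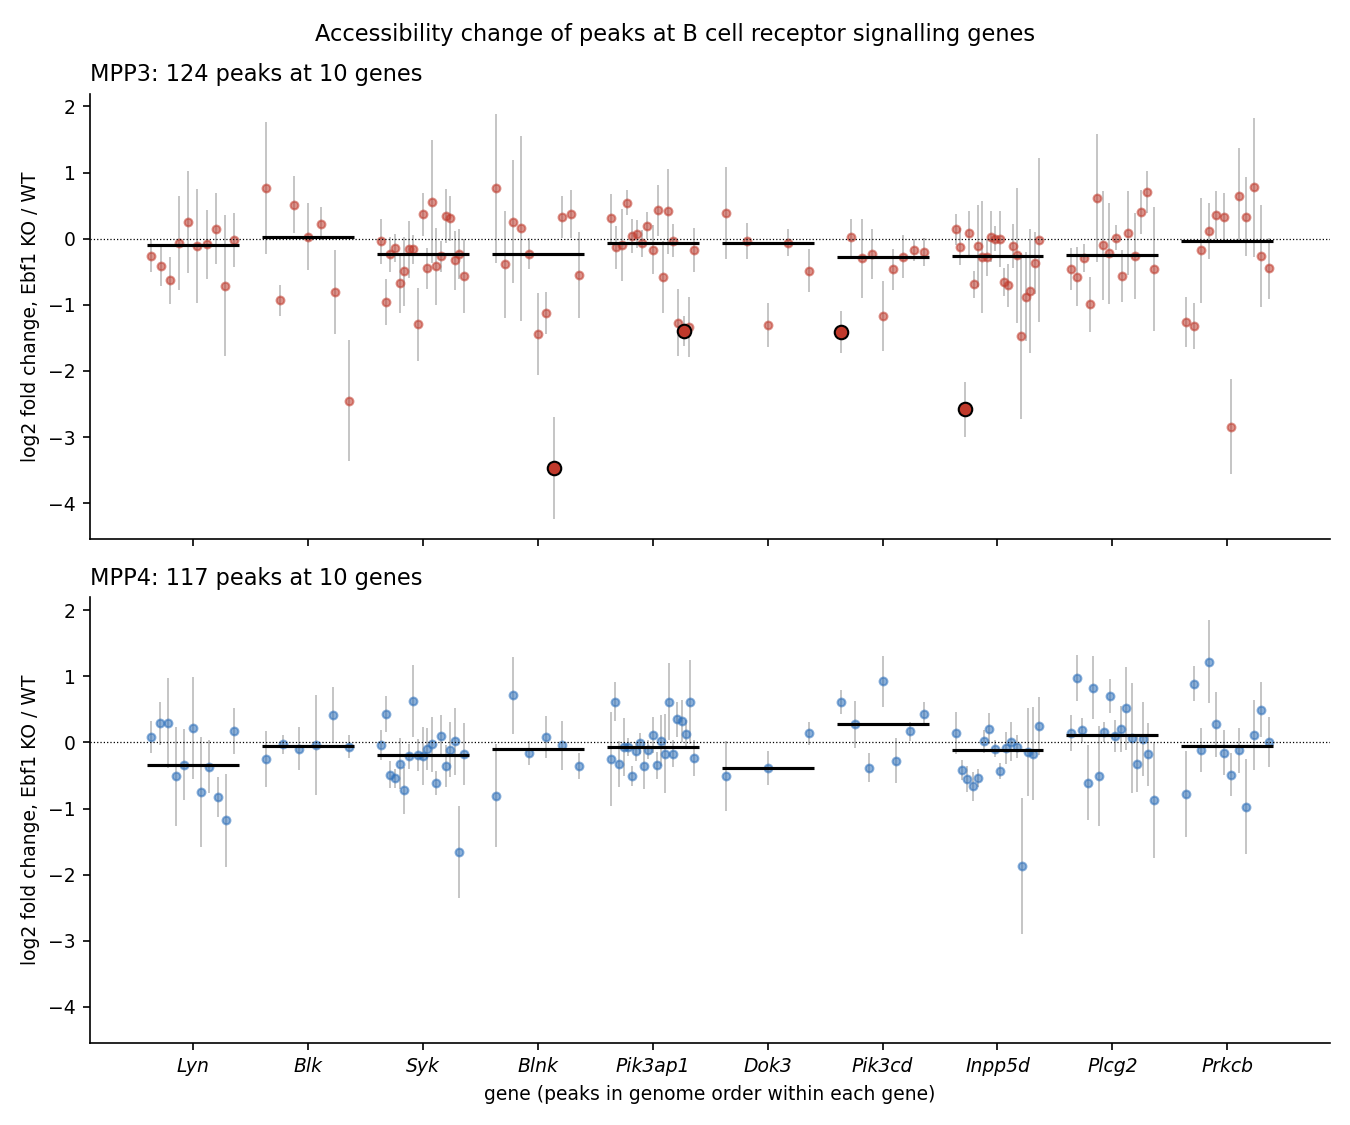
Log2 fold change (KO over WT) of each member peak, by gene in the order of the signalling chain, for MPP3 cells (top) and MPP4 cells (bottom), with gray bars for ± 1 approximate SE, a black line for the median of a gene, and large outlined points for peaks with an FDR under 0.05. The 4 outlined points are all in MPP3 cells and all below 0, and 0 points are outlined in MPP4 cells.

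As a group, 86 of 124 member peaks (69.4%) were below 0 in MPP3 cells, beside 50.4% of all MPP3 peaks, with a median log2 fold change of -0.18 beside 0.00 for all. The median was below 0 for 9 of the 10 genes, *Blk* being the exception. At an FDR under 0.1, 7 member peaks passed, all lower, beside 0.823% of all peaks. At an unadjusted p under 0.05, 23 member peaks passed (21 lower, 2 higher), beside 6.94% of all peaks in either direction and 4.47% lower. In MPP4 cells 69 of 117 (59.0%) were below 0, beside 47.4% of all, with a median of -0.09 beside 0.03 for all. There 2 member peaks passed an FDR of 0.1, those of *Inpp5d* and *Syk* above, beside 0.636% of all peaks. At an unadjusted p under 0.05, 19 passed (12 lower, 7 higher), beside 9.60% of all in either direction and 3.95% lower. Peaks of one gene share its chromatin, so these counts describe the group and carry no test. Since the libraries are bulk, fewer cells with an open site and less opening per cell cannot be told apart.

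Of the member peaks at transcript starts, within 1 kb of one, 19 of 23 were below 0 in MPP3 cells, with a median of -0.29, beside 53.8% of all start peaks with a median of -0.03. In MPP4 cells 6 of 19 were, with a median of 0.14, beside 41.7% of all start peaks with a median of 0.06. The medians of all start peaks thus had the same signs as those of the members, and the start peaks as a group were not tested between the cell types. Taking the highest start peak of each gene, 9 of 10 were below 0 in MPP3 cells, all but that of *Inpp5d*, and 2 of 9 in MPP4 cells, those of *Syk* and *Inpp5d*. Of the 15 upstream member peaks in MPP3 cells 13 were below 0, and of the 78 intron peaks 49 (62.8%), beside 49.2% of all MPP3 peaks away from a start. In MPP4 cells 8 of 13 upstream and 48 of 77 intron peaks (62.3%) were, beside 49.5% of all, so the intron shares of the 2 cell types were close. The log2 CPM of the highest start peak of each gene in MPP3 cells was also taken per kb of peak. It was 6.38 for *Dok3*, 5.89 for *Lyn*, 5.87 for *Pik3cd*, 5.80 for *Inpp5d* and 5.42 for *Pik3ap1*. For the other genes it was 5.39 for *Plcg2*, 5.29 for *Syk*, 5.07 for *Blnk*, 4.67 for *Prkcb* and 4.46 for *Blk*. These levels are means over both genotypes with no spread, so neighbors in that order were not compared.

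**Figure D2:**
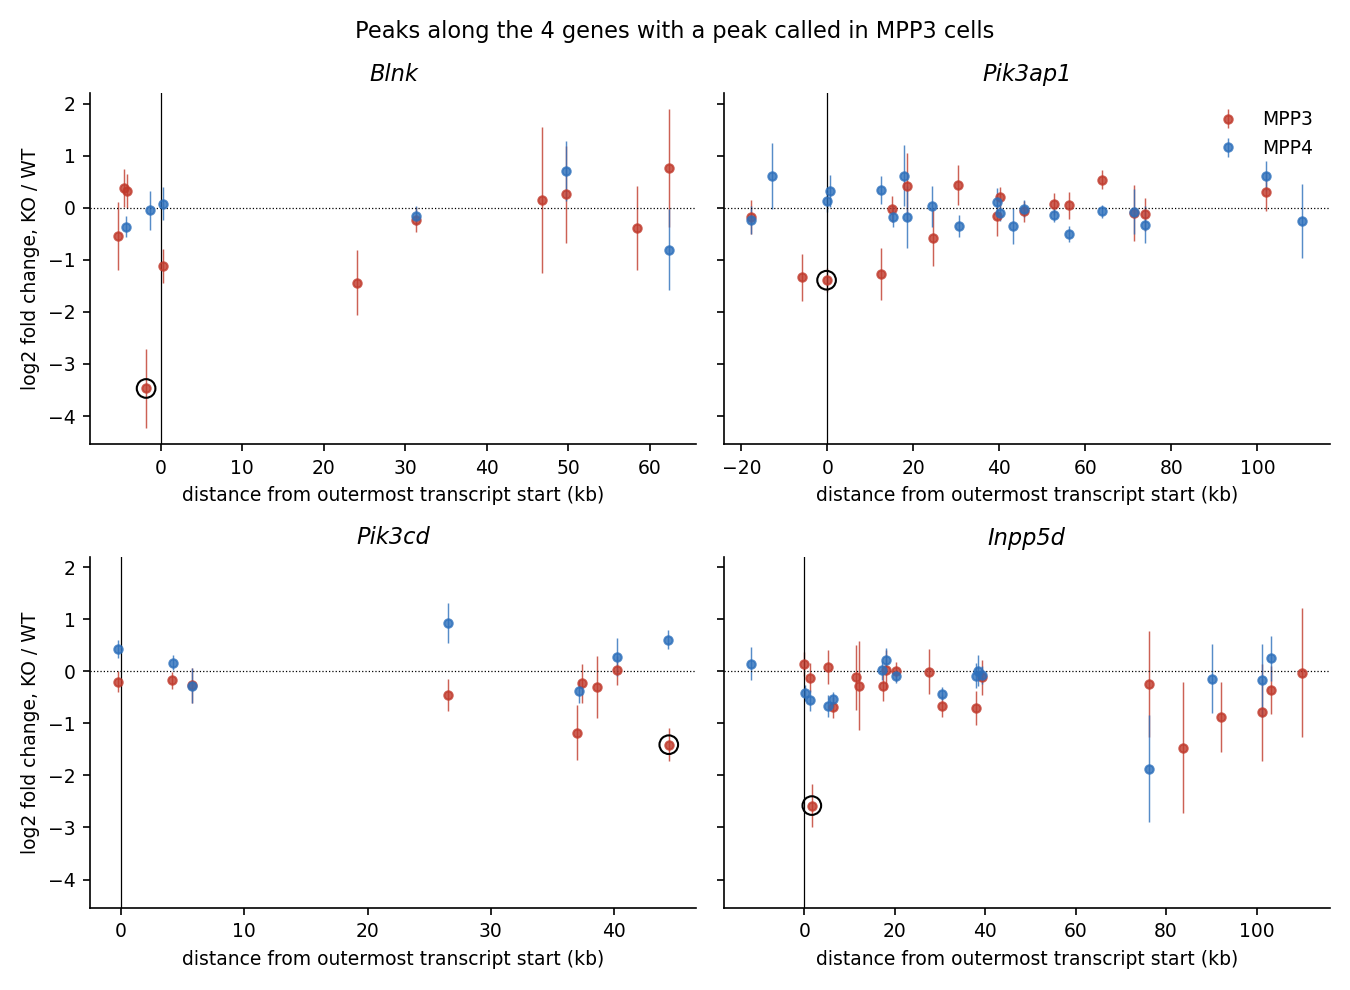
Log2 fold change (KO over WT) of each peak against the distance of its center from the outermost transcript start in kb, for *Blnk*, *Pik3ap1*, *Pik3cd* and *Inpp5d*, with MPP3 in red, MPP4 in blue, bars for ± 1 approximate SE and circles for an FDR under 0.05. The called peaks lie 1793 bp upstream of *Blnk*, 205 bp upstream of *Pik3ap1*, 44415 bp into *Pik3cd* and 1666 bp into *Inpp5d*.

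To compare the cell types directly, MPP3 and MPP4 peaks were matched where they shared at least 1 bp, and the difference of their log2 fold changes was tested over all 66324 matched peaks with the errors of both fits. Of the 124 MPP3 member peaks 95 had a counterpart (76.6%, beside 75.7% of all MPP3 peaks), always at the same gene. The difference passed an FDR of 0.05 at 3 of the 95, beside 1.21% of all matched peaks, and all 3 were lower in MPP3 cells. At *Pik3cd* the MPP3 minus MPP4 difference was -2.02 (SE 0.36, 95% interval -2.73 to -1.31, FDR = 2.8e-05). At the *Pik3ap1* promoter it was -1.52 (SE 0.32, 95% interval -2.14 to -0.90, FDR = 0.000666). At the *Prkcb* start (chr7:122288791-122289248) it was -2.15 (SE 0.46, 95% interval -3.05 to -1.24, FDR = 0.00134), although neither cell type passed alone. A t distribution in place of the normal one was an alternative chosen after seeing the data. With it the FDR of the difference was 0.0200 at *Pik3cd*, 0.0467 at the *Pik3ap1* promoter and 0.0594 at the *Prkcb* start. By the normal approximation, the difference at the *Blk* intron peak was -0.90 (SE 0.27, FDR = 0.0663). At the *Syk* peak 16158 bp upstream it was -1.39 (SE 0.44, FDR = 0.0909).

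Across the matched pairs, 34 were below 0 in both cell types, 28 below 0 in MPP3 and above 0 in MPP4 cells, 22 the other way and 11 above 0 in both. Over all matched peaks these classes held 23.9%, 27.6%, 24.7% and 23.9%. The 29 MPP3 member peaks with no counterpart had a median of -0.48 and 24 were below 0, beside 47.3% of all such peaks. The called peaks of *Inpp5d* and *Blnk* were among these 29.

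**Figure D3:**
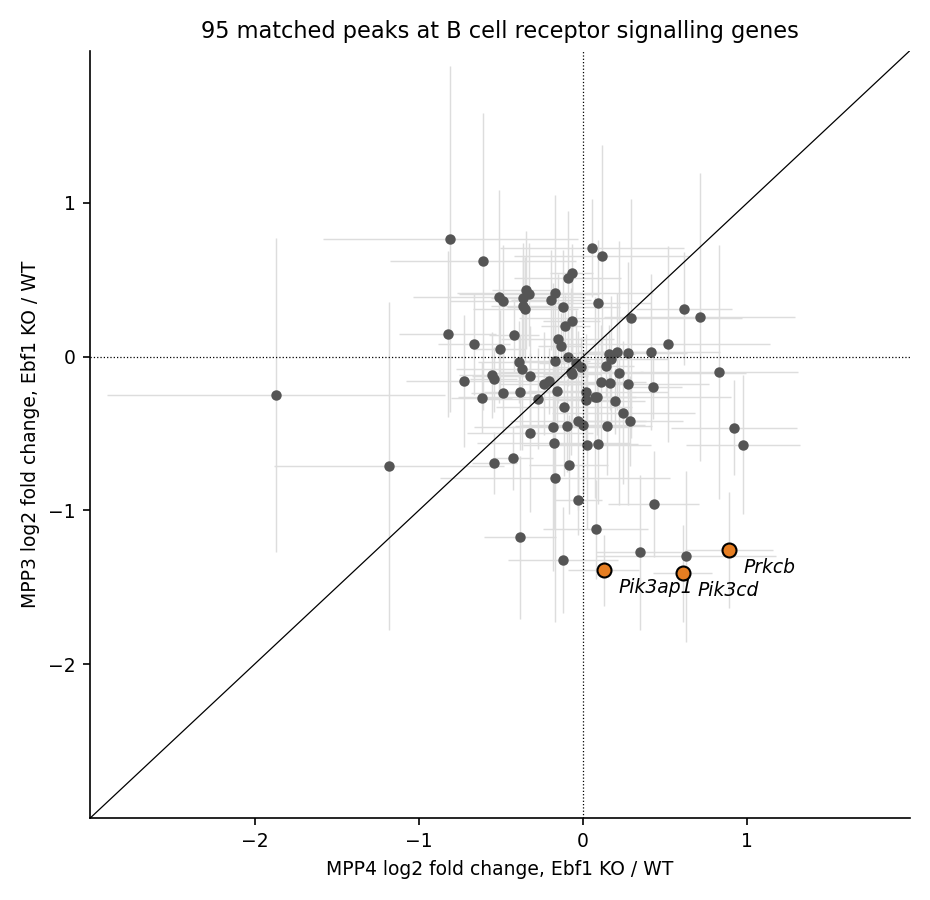
MPP3 against MPP4 log2 fold change (KO over WT) of the 95 matched member peaks, with bars for ± 1 approximate SE and the diagonal as a line. The 3 orange points, at *Pik3ap1*, *Pik3cd* and *Prkcb*, are those whose difference had an FDR under 0.05, and they lie below 0 on the MPP3 axis and above 0 on the MPP4 axis.

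The EBF1 word was then searched in a window of 300 bp around the center of every peak, which reaches past the ends of a shorter peak. Of the 124 MPP3 member windows 15 (12.1%) held it, beside 6.72% of all MPP3 windows, and of the 117 MPP4 member windows 11 (9.40%) did, beside 5.63% of all. At 3 of the 15 MPP3 members, 2 of *Lyn* and 1 of *Inpp5d*, the word lay in the window but outside the peak. Over whole peaks instead, 13 MPP3 members of 6 genes (10.5%) held the word, beside 7.46% of all, and 14 MPP4 members (12.0%), beside 6.49% of all. An E-box word was in 53.2% of the MPP3 and 53.8% of the MPP4 member windows, beside 38.5% and 39.0% of all. All 15 MPP3 members with the EBF1 word in the window were below 0, with a median of -0.57, where 59.8% of all MPP3 peaks with such a window were below 0. The 13 with the word in the peak were below 0 as well, with a median of -0.70, beside 61.0% of all. Of the 11 MPP4 members with the word in the window 5 (45.5%) were below 0, with a median of 0.13, beside 41.9% of all such MPP4 peaks. The 15 windows belonged to 7 genes. *Plcg2* had 4, *Pik3cd* 3, *Inpp5d*, *Lyn* and *Pik3ap1* 2 each, and *Blk* and *Prkcb* 1 each, while *Syk*, *Blnk* and *Dok3* had none. Over whole peaks *Lyn* had none either, and the *Blk* intron peak at -0.93 held the word away from its center.

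Of these 15 peaks 6 had an unadjusted p under 0.05 in MPP3 cells, all lower in KO cells. Of all MPP3 peaks 4.47% were lower at that p, and of the 5886 MPP3 peaks with the word in their window 12.4% were. Beside the *Pik3ap1* and *Pik3cd* sequences above, the sites of the other 4 are given with 10 bases on each side, on the strand of the gene, with the EBF1 word in capitals.
Blk, 2586 bp upstream, chr14:63419706-63419734: agttgtgatcTCCCAAGGGtctagtctct
Prkcb, 221 bp before a start, chr7:122289928-122289956: gtcctctactTCCCCGGGGcgtggagcat
Plcg2, 1011 bp into the gene, chr8:117499380-117499409: agtgtagcagTCCCAGGGGAttttggctgt
Inpp5d, intron, chr1:87658235-87658264: attaaaactaTCCCCTGGGAtgtttcagct
The *Blk* peak had -2.45 (SE 0.92), the *Prkcb* peak -1.32 (SE 0.35), the *Plcg2* peak -0.99 (SE 0.41) and the *Inpp5d* intron peak -0.70 (SE 0.32) in MPP3 cells, and none of these 4 passed an FDR of 0.05. Of the 15 peaks 10 had an MPP4 counterpart, with a median of -0.52 in MPP3 and 0.14 in MPP4 cells. The MPP3 value was the lower one at 8 of these 10, and the difference passed an FDR of 0.05 at 2 of them, *Pik3ap1* and *Pik3cd*. At the *Pik3cd* intron peak 1797 bp from its nearest start, which holds a site with both flanking bases, the values were -0.27 (SE 0.33) and -0.28 (SE 0.34), with a difference of 0.00 (SE 0.47). The other peaks with such a site and a counterpart were lower in MPP3 than in MPP4 cells, by a difference of -1.52 (SE 0.32) at the *Pik3ap1* start, -0.61 (SE 0.40) at the *Inpp5d* intron peak and -0.48 (SE 0.28) at the *Plcg2* start, and of these only that of *Pik3ap1* passed an FDR of 0.05.

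**Figure D4:**
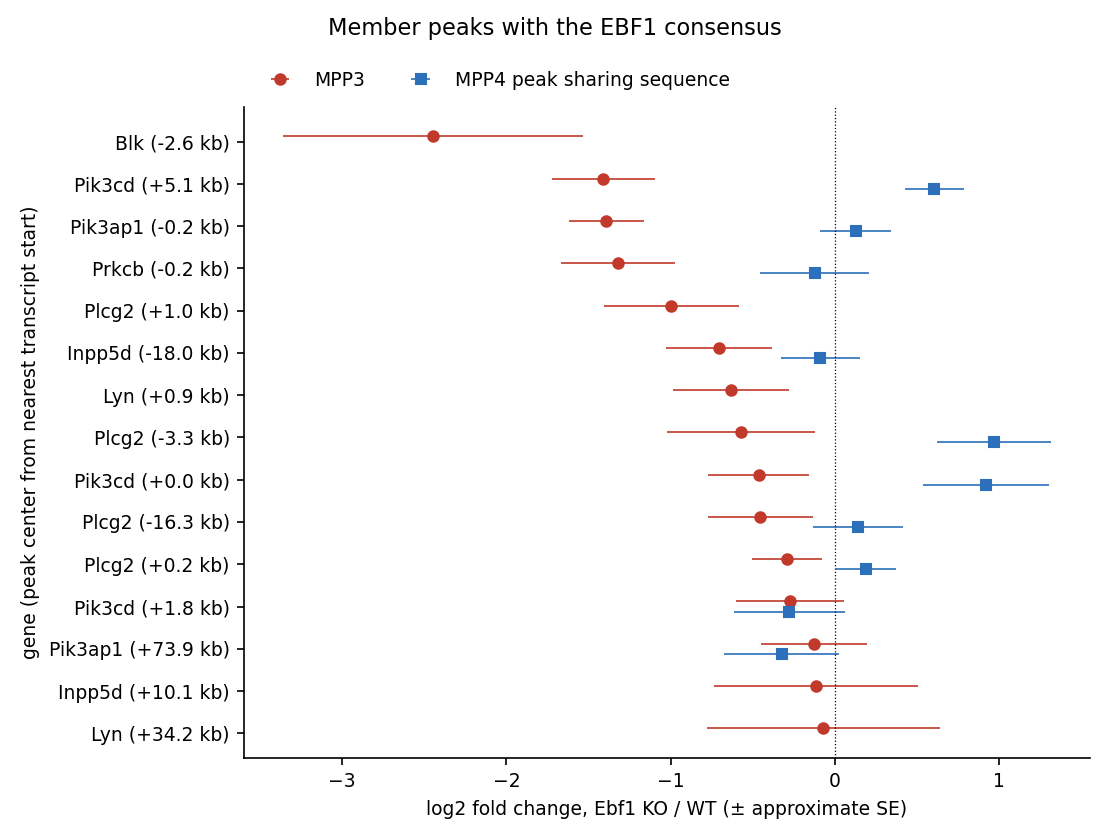
Log2 fold change (KO over WT) of the 15 MPP3 member peaks with the EBF1 word in the 300 bp around the center, from the lowest (top) to the highest, with the MPP4 peak that shares sequence where there is one. Bars are ± 1 approximate SE, and distances are from the nearest transcript start. All 15 red points lie below 0, from -2.45 at *Blk* to -0.07 at *Lyn*, and 6 of the 10 blue points lie above 0.

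Beyond the 10 genes, a list of 71 other genes of the B cell receptor pathway was examined in the same way. In MPP3 cells 70 had a peak and 9 of their 620 peaks were called, all lower, with a median of -0.02, beside 0.468% of all MPP3 peaks called lower. In MPP4 cells 69 had a peak and 4 of their 634 peaks were called, all higher, with a median of 0.00, beside 0.209% of all MPP4 peaks called higher (182, with 103 called lower). The receptor and co-receptor genes stood lowest in MPP3 cells, with 21 of 26 peaks below 0 and a median of -0.53. Among the peaks called there were those of *Cd79a* and *Cd79b*, which encode the signalling tails of the receptor, at -2.46 (SE 0.46, FDR = 0.0101) and -2.80 (SE 0.54, FDR = 0.0144). The adaptors of the list had 88 MPP3 peaks with a median of 0.00. Of these 0 were called by edgeR and 3 had an unadjusted p under 0.05, beside 6.94% of all MPP3 peaks. Among the member adaptors *Blnk* had 1 called peak of 11, *Pik3ap1* 1 of 17 and *Dok3* 0 of 5, beside 0.524% of all MPP3 peaks. The *Blnk* peak was no longer called after centring on GC content and level (FDR = 0.0513). The difference from the list was not tested. MPP3 calls elsewhere in the list were at *Plcg1*, which encodes a paralog of PLCγ2 (-1.59, SE 0.31), and *Itpr2*, a calcium channel (-2.81, SE 0.55). Others were at *Vav2*, an exchange factor (-2.51, SE 0.36), and *Prkce*, another protein kinase C, with 2 called peaks (-2.20, SE 0.44, and -1.17, SE 0.26). The MPP4 calls were at the adaptor *Dok2* (0.82, SE 0.18), the p110α gene *Pik3ca* (1.17, SE 0.28), *Vav2* (1.24, SE 0.27) and *Nfkb1* (1.39, SE 0.31).

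Markers of B-committed progenitors had, like the members, a median below 0 in MPP3 cells, and the lists were not tested against each other. Of 15 such genes 14 had a peak, their 44 peaks had a median of -0.57 with 36 below 0, and 8 peaks were called lower, among them peaks of *Cd79a*, *Cd79b*, *Igll1*, *Ms4a1*, *Bst1* and *Pou2af1*. Of all MPP3 peaks 50.4% were below 0 and 0.468% were called lower. Their peaks summed to 397 CPM, of which *Dntt*, with most, gave 145, and *Rag1* had no peak. In MPP4 cells 12 of the 15 had a peak (*Cd79a*, *Vpreb1* and *Rag1* had none). Their 43 peaks summed to 379 CPM and had a median of -0.02. Of these peaks 0 were called by edgeR and 3 had an unadjusted p under 0.05, beside 9.60% of all MPP4 peaks. *Pax5*, a defining B cell gene, had -0.68 (SE 0.22, FDR = 0.295) at its start in MPP3 cells. The tables give these sums as means over both genotypes and not per library. The part of B-committed cells within the MPP3 gate in the members' values was not tested.

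Markers of granulocytes and monocytes had 40 MPP3 peaks with a median of 0.24, 11 of them below 0, and 35 MPP4 peaks with a median of 0.19, and 0 were called by edgeR in either cell type, with 8 MPP3 peaks, all higher in KO cells, and 5 MPP4 peaks, 4 of them higher, at an unadjusted p under 0.05. Of all peaks 2.47% in MPP3 and 5.65% in MPP4 cells were higher at that p. The part of such cells in the members' values was not tested. Of 8 T cell markers 4 had a peak in MPP3 cells (11 peaks, 109 CPM, of which *Cd3d* gave 70.7) and 6 in MPP4 cells (16 peaks, 140 CPM), with medians of 0.12 and 0.12. *Cd8a* and *Trbc1* had no peak in either cell type, and *Cd3e* and *Cd3g* none in MPP3 cells. Of 8 megakaryocyte and erythroid markers 7 had a peak in each cell type, with medians of -0.04 and -0.03. Of both lists 0 peaks were called by edgeR. At an unadjusted p under 0.05 there were 1 and 1 T cell peaks and 2 and 3 megakaryocyte and erythroid peaks in MPP3 and MPP4 cells. Of all peaks 6.94% in MPP3 and 9.60% in MPP4 cells passed that p in either direction. The part of T cells and of megakaryocyte and erythroid cells in the members' values was not tested. Among the genes of the gates, *Flt3* summed to 170 CPM in MPP3 and 319 CPM in MPP4 cells, and the start of *Slamf1*, which encodes CD150, was weak in both, at a mean log2 CPM of 1.42 and 1.33. At *Ebf1* itself, 14 of 19 MPP3 peaks were below 0 with 1 called lower (chr11:44892895-44893450, -2.11, SE 0.46, FDR = 0.0350), and 3 of 18 MPP4 peaks were below 0 with 0 called by edgeR, the one with the smallest p having 1.37 (SE 0.35, FDR = 0.0667). These peaks show accessibility of the locus and do not measure the deletion.

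**Figure D5:**
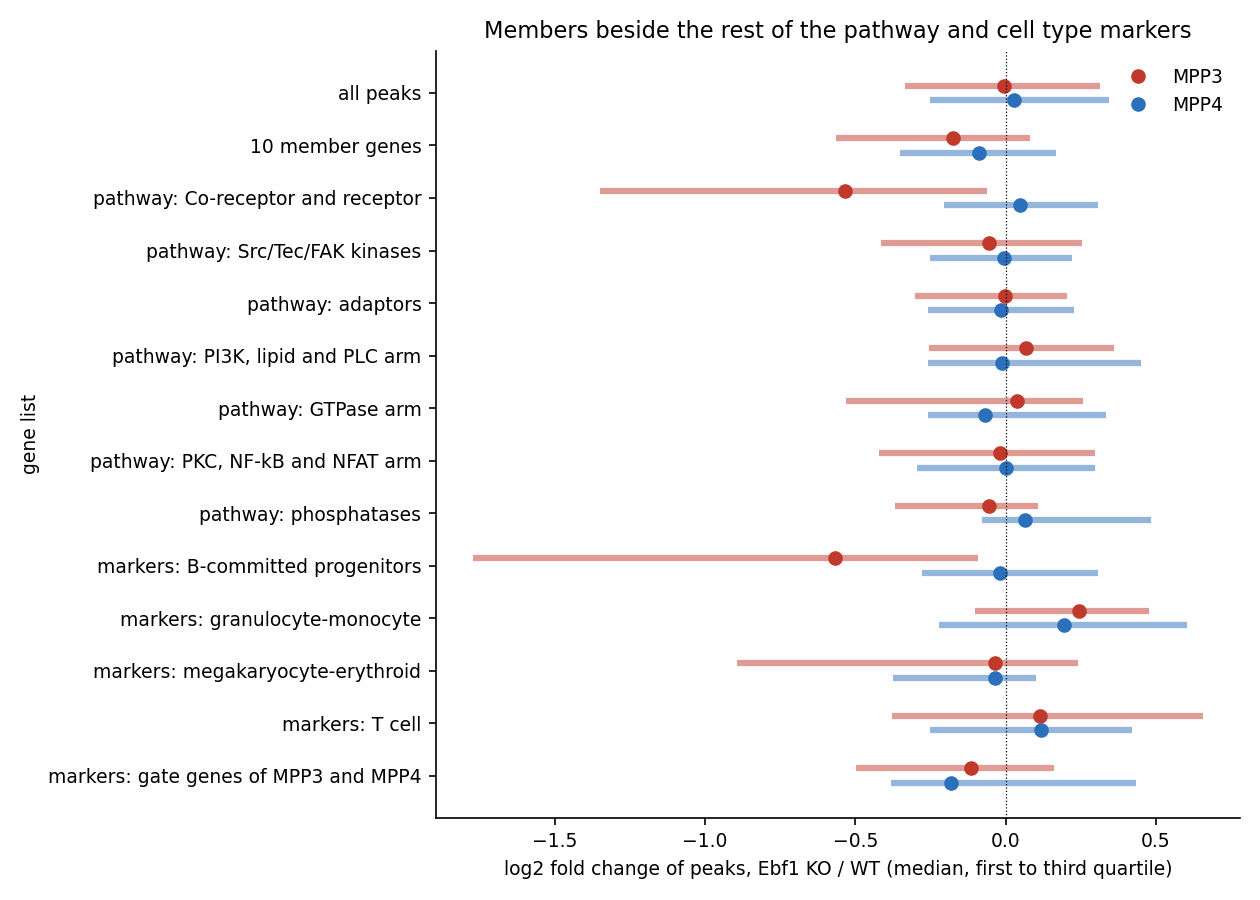
Median (points) and the range between the quartiles (bars) of the log2 fold change (KO over WT) over the peaks of each gene list, MPP3 in red and MPP4 in blue, with all peaks and the 10 member genes on top. The receptor genes (median -0.53) and the B-committed markers (median -0.57) lie lowest in MPP3 cells, and the member genes (median -0.18) lie between them and all peaks.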

How the data were processed

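The authors trimmed reads with Cutadapt 2.10, mapped them to mm10 with snakePipes (duplicates removed, mapping quality of at least 5), removed fragments longer than 150 bp with deepTools 3.3.2, called peaks on merged replicates (MACS2 2.2.7.1, q-value 0.01), merged both genotypes' peaks and tested genotype per cell type with edgeR 3.32.0. Only short fragments therefore enter the values. The log2 fold change and the mean log2 CPM of each peak were deposited by the authors, as were the F statistic, a score from that quasi-likelihood test, its p-value and its Benjamini-Hochberg FDR. The tables hold only these columns of the authors' own comparison, which were used as the sole measurement, with 0 columns per library.

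Computed here, with Python 3.11.15 and scipy 1.17.1, were the gene of each peak, the approximate SE, intervals from the t distribution with 20.1 (MPP3) and 48.6 (MPP4) total degrees of freedom, solved from the F and p-value of each table (the 4 libraries of a cell type leave 2, and the rest come from the prior of the authors' moderated test), and the match of peaks. Differences between cell types were tested two-sided by the normal approximation, which also gave their 95% intervals. Benjamini-Hochberg adjustment was made over all matched peaks. Motifs were searched on both strands of GRCm38. The difference test, the match of peaks, the motif search and the approximate SE were tested on simulated data. The simulated differences had normal errors with known SEs, so they could not test the normal approximation itself. All 10 genes were named, with their peaks called in either table, the highest start peak and the peak of smallest p per gene. Genes of the other lists were named where a peak was called, except for a result that is not reported here, and a few marker and *Ebf1* peaks were chosen after their values were seen. Members and lists were chosen with earlier results of these data known. Alternatives changed the FDR threshold, the minimum level, the centring on GC content and level, the gene window and the motif.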

Additional observations from a re-analysis of the deposited data

Results flagged for a closer look

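At 3 of 95 matched member peaks the difference between KO and WT differed between MPP3 and MPP4 cells in a test of the difference itself, which 1.21% of all matched peaks passed. The MPP3 minus MPP4 difference in log2 fold change was -2.02 (SE 0.36) at the *Pik3cd* intron peak, -1.52 (SE 0.32) at the *Pik3ap1* promoter and -2.15 (SE 0.46) at the *Prkcb* start. With a t distribution the FDR was 0.0200 at *Pik3cd*, 0.0467 at *Pik3ap1* and 0.0594 at *Prkcb*. In MPP4 cells alone the log2 fold change was 0.61 (SE 0.18, FDR = 0.146) at *Pik3cd* and 0.13 (SE 0.22, FDR = 0.916) at *Pik3ap1*. At *Prkcb* it was 0.89 (SE 0.27, FDR = 0.157), so all 3 were above 0 but were not called there. The groups of the cell types differ in the ages of the mice. Age and genotype go together in MPP4 cells, so their parts in these differences cannot be told apart.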

How the results depend on the processing

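In MPP3 cells the 4 called member peaks became 2 at an FDR of 0.01 and 7 at 0.1, all lower in KO cells, and 3 to 5 under the other alternatives. The *Blnk* peak had an FDR of 0.0513 after centring on GC content and level. In MPP4 cells the count of 0 became 2 at an FDR of 0.1 and 2 among peaks with a mean log2 CPM of at least 3, all lower. The median log2 fold change of the members stayed between -0.20 and -0.16 in MPP3 and between -0.09 and -0.07 in MPP4 cells, also without the MPP3 peaks with an FDR under 0.1, an alternative chosen after seeing the data. Searched over whole peaks, the EBF1 word was in 10.5% of MPP3 and 12.0% of MPP4 members, beside 7.46% and 6.49% of all. With both flanking bases required, the EBF1 site was in 4.84% of MPP3 and 3.42% of MPP4 member windows, beside 1.05% and 0.699% of all. Differences between the cell types numbered 3, and 5 at an FDR of 0.1. After centring they numbered 4, with *Blk* added (FDR = 0.0186). With a t distribution on the smaller degrees of freedom, also chosen after seeing the data, they numbered 2, and *Prkcb* was lost (FDR = 0.0594). The FDR then was 0.0200 at *Pik3cd* and 0.0467 at *Pik3ap1*. No paired analysis was possible because the tables hold no column per library, and for the same reason no library could be left out. The planned fits with a replicate block and without each replicate were not run. Weak peaks such as that of *Blnk* were measured with less precision, and the fold change of a peak near 0 in one genotype depends on the prior count of the authors' fit.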
